A study of Mus musculus with 24 samples.

Results

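Axon guidance ligands and receptors were followed across mouse cerebellar tumours that lack Gnas and normal cerebellum. The genes were chosen by their names: semaphorins (Sema), plexins (Plxn), neuropilins (Nrp1 and Nrp2), ephrins (Efna and Efnb), Eph receptors (Epha and Ephb), Slit ligands, Robo receptors, netrins (Ntn), Dcc and Unc5 genes. These letters matched 71 of the 20893 genes on the array, and 57 of the 71 were bright enough to be tested. The other 14 were Efna1, Efna4, Epha1, Epha10, Ephb4, Ntn3, Ntn5, Robo3, Robo4, Sema3b, Sema3c, Sema3g, Sema4a and Unc5cl, for which no differences are given. Unc50 and Unc5cl matched the letters alone and are not known as netrin receptors. The tested genes were 16 of 20 semaphorins, 11 of 11 plexins and neuropilins, 6 of 8 ephrins, 11 of 14 Eph receptors, 3 of 3 Slit ligands, 2 of 4 Robo receptors, 2 of 4 netrins, 5 of 5 netrin receptors, and Unc50.

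The study asked whether Gnas, which encodes the stimulatory G protein alpha subunit, restrains medulloblastoma driven by Sonic hedgehog, a tumour of the granule neuron lineage. RNA of 24 tissue samples was measured, 1 sample per array. Tumours of genotype hGFAP:GnasCKO (8 samples) and Oligo1:GnasCKO (8 samples) came from mice of a mixed C57BL/6 x 129 background and were dissected at endpoint, with no ages in the labels. In both, Cre recombinase removes a conditional Gnas allele. In the first, the human GFAP promoter drives Cre and acts in neural stem and progenitor cells, so that Gnas can also be lost outside the granule lineage; the labels name the second driver Oligo1. Developing cerebellum came from wild-type C57BL/6 animals at embryonic day 15 (E15), embryonic day 18 (E18) and postnatal day 0 (P0), 1 sample each. Adult wild-type cerebellum (5 samples) comprised 2 samples from postnatal day 60 (P60) and 1 of an unrecorded adult age on the mixed background, and C57BL/6 samples from postnatal days 95 (P95) and 122 (P122). No wild-type sample carries Cre, and the tumour samples are labelled biological replicates. Tissue pieces hold many cell types, and in them fewer cells of a type and less RNA per cell cannot be told apart.

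Guidance ligands steer growing axons and migrating neurons by attraction or repulsion. Slit proteins are secreted and bind Robo receptors. Netrins attract through Dcc and repel when Unc5 receptors take part. Semaphorins act through plexins, and the secreted class 3 semaphorins mostly need neuropilins as co-receptors. Ephrins stay attached to the cell surface and bind Eph receptors on neighbouring cells, with signals passing in both directions. In the developing cerebellum such cues guide granule neuron precursors as they leave the outer layer and extend parallel fibres, and they pattern the climbing and mossy fibre inputs. Most of these genes are used strongly while connections form.

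Among the tested genes, Sema3e and Sema7a were called higher in both tumour groups than in developing and in adult cerebellum, and Epha2 was called higher than both in Oligo1 tumours. Sema3e encodes a secreted semaphorin that binds plexin D1 without a neuropilin. Sema7a encodes a membrane-anchored semaphorin recognised by plexin C1 and integrins, and Epha2 an Eph receptor best known from epithelia. Because these 3 genes stood above both normal stages, the 250 bases before their RefSeq gene starts (build GRCm38.p6, plus strand, 5′ to 3′) are printed, at chr5:14025026-14025275, chr9:57939862-57940111 and chr4:141300971-141301220. Capitals mark the motifs found. Both strands were searched for the GLI motif GACCACCCA, the target of the hedgehog pathway's transcription factors, for the cyclic AMP response element TGACGTCA and its shorter form TGACG, and for the E-boxes CAGCTG and CAGATG.
Sema3e: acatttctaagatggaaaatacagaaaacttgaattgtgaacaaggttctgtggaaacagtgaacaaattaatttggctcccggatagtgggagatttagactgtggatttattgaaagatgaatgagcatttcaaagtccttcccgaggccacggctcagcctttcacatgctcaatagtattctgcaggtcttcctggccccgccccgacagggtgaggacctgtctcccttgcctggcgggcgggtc
Sema7a: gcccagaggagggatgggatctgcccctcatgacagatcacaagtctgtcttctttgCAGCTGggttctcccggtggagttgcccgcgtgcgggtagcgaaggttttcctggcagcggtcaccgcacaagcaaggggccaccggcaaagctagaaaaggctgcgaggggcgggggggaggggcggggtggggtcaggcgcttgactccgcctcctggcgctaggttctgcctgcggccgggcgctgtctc
Epha2: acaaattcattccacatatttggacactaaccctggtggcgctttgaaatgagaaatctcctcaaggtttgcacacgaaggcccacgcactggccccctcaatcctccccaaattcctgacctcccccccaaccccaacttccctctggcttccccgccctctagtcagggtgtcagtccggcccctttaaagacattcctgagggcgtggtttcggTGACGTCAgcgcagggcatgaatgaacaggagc
The Sema3e window held no searched motif, the Sema7a window held CAGCTG, and the Epha2 window held TGACGTCA, whose letters contain TGACG on each strand. RefSeq promoters were found for 61 of the 71 genes. In these windows TGACGTCA was in 1.64% of the guidance genes and 1.77% of all 27025 genes with a promoter. Likewise CAGCTG was in 19.7% of the guidance genes and 14.7% of all, CAGATG in 8.20% and 16.3%, TGACG in 11.5% and 19.8%, and GACCACCCA in 0 of the 61 guidance genes and 0.255% of all genes. These shares describe letters in a window and show no binding.

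Values are log2 intensities normalized by the authors and combined over the probe sets of a gene, so 1 unit is a 2-fold difference in signal. Levels of different genes cannot be set against each other on this scale. Samples of a group are given in the order E15, E18, P0 for developing cerebellum, and in the order P60, P60, P95, P122 and unrecorded age for adult cerebellum. A difference was called at an adjusted p under 0.05 in a limma model over all 24 arrays, with Benjamini-Hochberg adjustment over 10983 genes. The value 7.61, the median of the whole table, marks dim signals. A gene was tested if 3 arrays lay above it, so a gene could pass through the group where it was bright. The adult samples serve as reference for 3 comparisons and the developing samples for 2, so those results are not independent of each other.

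Gnas itself ranged between 7.38 and 9.33 (median 8.00) in hGFAP tumours and between 6.96 and 8.41 (median 7.96) in Oligo1 tumours, against 9.87 to 9.98 in developing and 9.69 to 9.87 in adult cerebellum. The array's Gnas signal was thus lower in all 16 tumours than in the 8 normal samples. Of 9 tested markers of mature granule neurons, 9 were called lower in each tumour group than in adult cerebellum, and of 10 markers of granule neuron precursors, 10 were called higher. Over all genes, 29.8% were called lower and 24.2% higher in hGFAP tumours, and 34.5% and 35.8% in Oligo1 tumours. The cerebellar territory genes, such as En2 and Pax6, had mean levels of 9.53 to 10.07 in hGFAP tumours, 9.34 to 9.71 in Oligo1 tumours, 9.66 to 10.43 in developing and 9.91 to 10.32 in adult cerebellum. Of the 4 tested, 1 was called lower than in adult cerebellum in hGFAP tumours and 2 in Oligo1 tumours, with En2 at -1.04 and -1.15. The sample hGFAP tumour 5 stood apart: its precursor markers averaged 7.78, where the hGFAP median was 10.66, and its proliferation markers averaged 7.10. It held the lowest or the highest level of its group for 39 of the 57 guidance genes. hGFAP tumour 7 did so for 32 genes, and Oligo1 tumours 1 and 6 for 26 and 24. Without hGFAP tumour 5, hGFAP tumours differed from adult cerebellum in 37 guidance genes and from developing cerebellum in 36, where 64.0% and 40.8% of all genes were called.

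Against developing cerebellum, guidance genes were more often lower than higher in tumours. hGFAP tumours had 28 guidance genes called lower and 5 higher of 57, which is 57.9% against 28.3% of all tested genes. Over all tested genes, 13.3% were called lower and 15.0% higher in that comparison. Oligo1 tumours had 29 lower and 5 higher, which is 59.6% against 47.5% of all genes. Over all genes 19.9% were called lower and 27.5% higher. The median difference of the 57 genes was -0.78 in hGFAP tumours and -0.64 in Oligo1 tumours, beside 0.06 and 0.12 over all genes tested. Sample values did not overlap for 25 lower and 4 higher guidance genes in hGFAP tumours (11.4% and 9.91% of all genes, together 21.3%), and for 26 lower and 4 higher in Oligo1 tumours (16.8% and 25.3%, together 42.1%). The wild-type samples of these stages are all C57BL/6. With strain as a covariate, which the adult samples alone can estimate, the count for hGFAP tumours was 18 (14 lower, 4 higher) and that for Oligo1 tumours 25 (22 lower, 3 higher). The share called over all genes fell with it, to 7.07% in hGFAP and 13.2% in Oligo1 tumours.

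Against adult cerebellum, guidance genes were split by direction. hGFAP tumours had 20 called higher and 15 lower, where 24.2% of all genes were called higher and 29.8% lower. Oligo1 tumours had 20 higher and 24 lower, where 35.8% and 34.5% of all genes were called. The called share of guidance genes was 61.4% in hGFAP tumours (54.0% of all genes) and 77.2% in Oligo1 tumours (70.2% of all genes), so these shares lay near the background. Sample values did not overlap for 8 higher and 12 lower guidance genes in hGFAP tumours (5.15% and 14.1% of all genes, together 19.2%), and for 15 higher and 17 lower in Oligo1 tumours (26.1% and 25.3%, together 51.4%). The median differences were -0.07 and 0.07, beside -0.02 and 0.04 over all genes. Developing against adult cerebellum gave 34 guidance genes called higher and 6 lower, where 20.2% and 25.5% of all genes were called, together 45.7%. Sample values did not overlap for 35 higher and 8 lower guidance genes (26.1% and 30.2% of all genes, together 56.3%), and the median difference was 0.89, beside -0.05 over all genes. Unc50 was called lower than in adult cerebellum in hGFAP tumours (-0.35), in Oligo1 tumours (-0.26) and in developing cerebellum (-0.40).

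**Figure D1:**
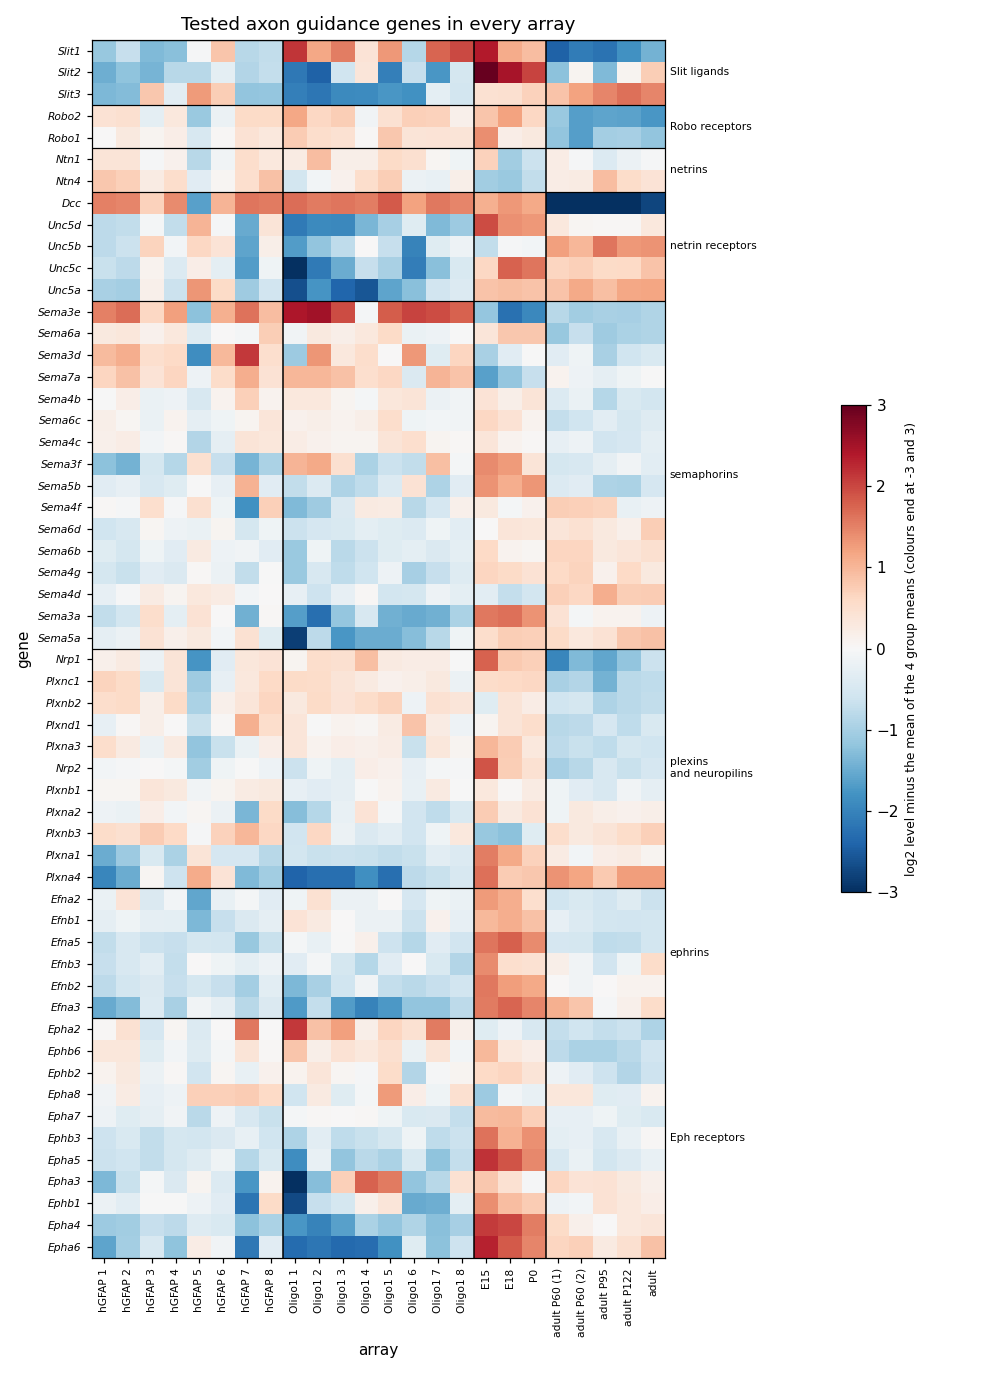
Level of 56 tested guidance genes (Unc50 left out) in each of the 24 samples, as the log2 difference from the mean of the 4 group means. Genes run down by family and samples across by group, with hGFAP tumours left, then Oligo1 tumours, developing and adult cerebellum. Colours end at 3 in either direction. The ephrin rows are strongest in the 3 developing samples. The Dcc row is high in all samples but the adult ones and hGFAP tumour 5, whose log2 level was 8.44.

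Of the Slit ligands, Slit1 had levels of 6.25 to 8.41 (median 6.79) in hGFAP tumours and 6.72 to 9.73 (median 9.01) in Oligo1 tumours. Developing samples had 9.96, 8.70 and 8.50, and adult samples 5.16, 5.49, 5.36, 5.78 and 6.18. All tumours thus lay above all adult samples, and all hGFAP tumours below all developing samples, while Oligo1 tumours overlapped the developing range. Above 7.61 lay 7 of 8 Oligo1 tumours and 3 of 3 developing samples, but 1 of 8 hGFAP tumours and 0 of 5 adult samples. The rise of hGFAP tumours over adult cerebellum thus lay between mostly dim signals, and its size is approximate. Slit1 rose by 1.34 ± 0.42 (SE) on the log2 scale in hGFAP tumours against adult cerebellum (adjusted p = 0.0111) and by 3.17 ± 0.42 in Oligo1 tumours (adjusted p = 1.38e-06). Against developing cerebellum it was lower by a log2 difference of -2.12 ± 0.50 in hGFAP tumours (adjusted p = 0.00273; 0.151 with strain as a covariate). In Oligo1 tumours the difference from developing cerebellum was -0.29 (95% interval -1.33 to 0.75, adjusted p = 0.654), and it came out at 0.21 with arrays weighted by quality. In developing over adult cerebellum Slit1 was higher by 3.46 ± 0.54. The lowest Oligo1 value belonged to Oligo1 tumour 6.

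Slit2, another secreted Robo ligand, was low in tumours: 5.58 to 6.75 (median 6.19) in hGFAP and 4.62 to 7.41 (median 5.82) in Oligo1 tumours. Developing samples had 10.07, 9.50 and 9.07, and adult samples 5.80, 7.12, 5.72, 7.12 and 7.79. All tumours lay below 7.61, in the range of dim signals, and below all developing samples, and they overlapped the adult ones. The differences from developing cerebellum were -3.46 ± 0.49 in hGFAP tumours (adjusted p = 1.34e-05) and -3.73 ± 0.49 in Oligo1 tumours (adjusted p = 3.38e-06). Of its 36 probe sets 26 were bright, and these were called lower in each. As a gene, Slit2 lay above 7.61 in 3 developing samples and 1 adult sample only. Its probe sets could thus pass as bright mainly through the developing samples, so their shared direction gives no separate support. Against adult cerebellum the differences were -0.62 (95% interval -1.48 to 0.23) and -0.90 (-1.75 to -0.04), and neither was called.

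Slit3 was lower in tumours than in adult cerebellum. It had 6.47 to 9.10 (median 7.08) in hGFAP tumours, 5.65 to 7.51 (median 5.96) in Oligo1 tumours, 8.26, 8.29 and 8.50 in developing samples, and 8.66, 9.01, 9.28, 9.46 and 9.28 in adult samples. Oligo1 tumours lay below all normal samples, while hGFAP tumours reached into both normal ranges, with the highest value in hGFAP tumour 5. The difference from adult cerebellum was -1.63 ± 0.42 in hGFAP tumours (adjusted p = 0.00277; -1.86 without hGFAP tumour 5) and -2.88 ± 0.42 in Oligo1 tumours (adjusted p = 4.19e-06). Against developing cerebellum Slit3 was called lower in Oligo1 tumours (-2.09), and the difference in hGFAP tumours was -0.85 (95% interval -1.89 to 0.20).

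The Robo receptors, which bind Slit proteins, were both higher than in adult cerebellum. Robo1 had 9.57 to 10.48 (median 10.21) in hGFAP tumours, 10.09 to 10.86 (median 10.50) in Oligo1 tumours, 11.46, 10.25 and 10.35 in developing samples, and 8.89, 8.40, 9.03, 9.05 and 8.88 in adult samples. No tumour overlapped an adult sample, and tumours overlapped the developing ones. Robo1 rose by 1.32 ± 0.18 in hGFAP tumours (adjusted p = 7.43e-06) and by 1.68 ± 0.18 in Oligo1 tumours (adjusted p = 1.21e-07) against adult cerebellum, with 28 of 28 bright probe sets called higher in each.
Robo2 had 9.00 to 10.69 (median 10.48) in hGFAP tumours, 10.01 to 11.28 (median 10.76) in Oligo1 tumours, 10.94, 11.31 and 10.73 in developing samples, and 9.01, 8.46, 8.53, 8.51 and 8.37 in adult samples. hGFAP tumour 5 was the only tumour in the adult range. The rise over adult cerebellum was 1.63 ± 0.24 in hGFAP tumours and 2.09 ± 0.24 in Oligo1 tumours (adjusted p = 1.64e-05 and 2.65e-07). Against developing cerebellum Robo2 was lower in hGFAP tumours by a log2 difference of -0.78 (adjusted p = 0.0440) and in Oligo1 tumours differed by -0.33 (95% interval -0.92 to 0.27).

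**Figure D2:**
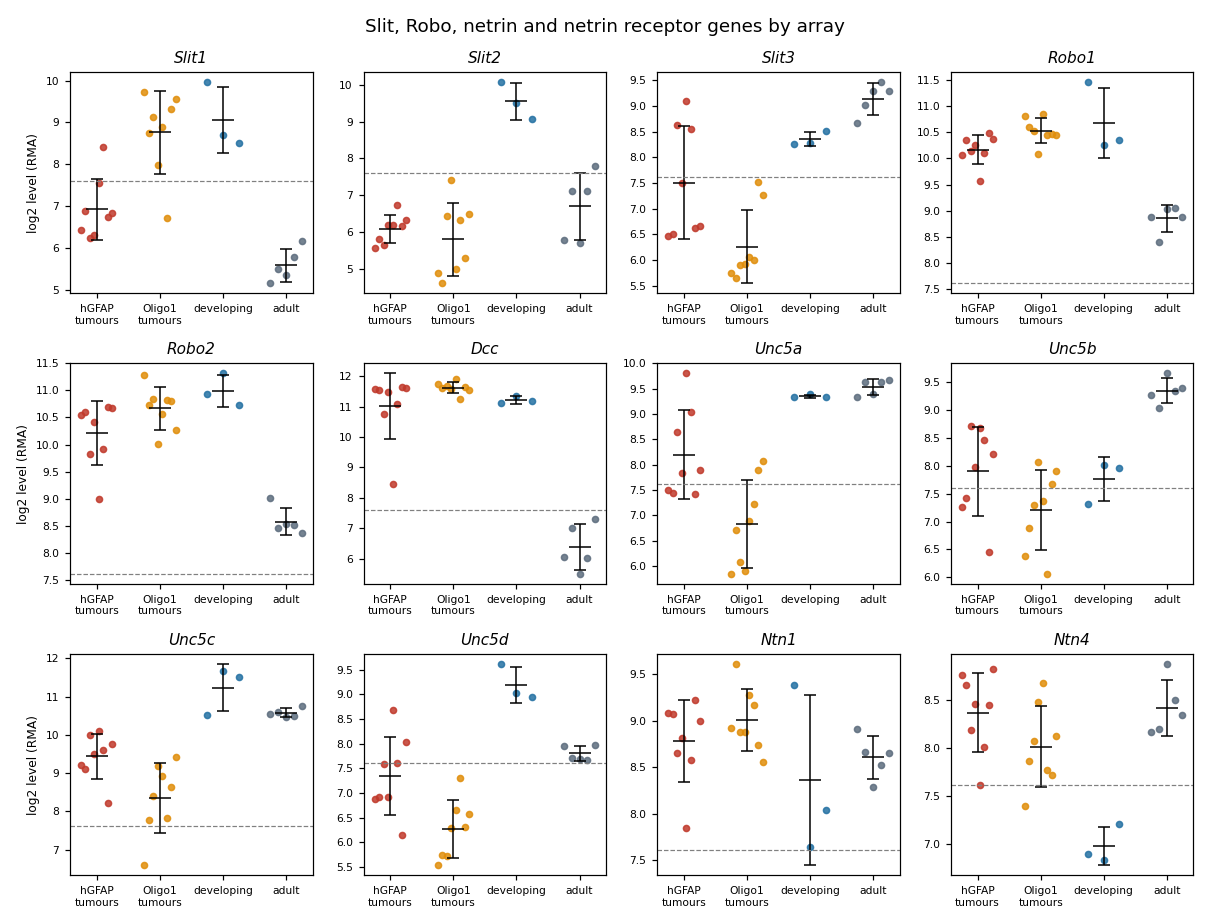
Log2 level of Slit, Robo, netrin and netrin receptor genes in every sample, 1 panel per gene, with groups from left to right as hGFAP tumours, Oligo1 tumours, developing and adult cerebellum. Points are samples, bars the mean ± SD of a group, and the dashed line the value 7.61; Dcc and the Robo genes sit high in tumours and developing samples, and the Unc5 points of Oligo1 tumours lie low.

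Dcc, the receptor through which netrin attracts axons, differed most between tumours and adult cerebellum of the tested guidance genes. It had 8.44 to 11.66 (median 11.50) in hGFAP tumours, 11.26 to 11.90 (median 11.63) in Oligo1 tumours, 11.11, 11.36 and 11.19 in developing samples, and 6.04, 7.01, 5.49, 6.03 and 7.32 in adult samples. Adult samples all lay in the range of dim signals and below every tumour, and hGFAP tumour 5 was the lowest tumour, with the next at 10.75. Dcc rose by 4.63 ± 0.40 on the log2 scale in hGFAP tumours (adjusted p = 4.23e-08) and by 5.24 ± 0.40 in Oligo1 tumours (adjusted p = 3.71e-09), with 31 of 31 bright probe sets called in each. Since the adult signal was dim, these sizes are approximate. Against developing cerebellum the differences were -0.21 (95% interval -1.19 to 0.77) and 0.40 (-0.58 to 1.37), and neither was called. Markers of granule neuron precursors moved with Dcc: their mean level was 7.78 to 10.97 in hGFAP tumours, 10.39 to 11.00 in Oligo1 tumours, 9.14 to 10.19 in developing and 6.32 to 6.64 in adult cerebellum. Their part in the Dcc difference was not tested.

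The Unc5 receptors, which turn the netrin response into repulsion, were mostly lower in tumours than in adult cerebellum. In hGFAP tumours 3 of 4 were called lower, and in Oligo1 tumours 4 of 4. Over all genes, 29.8% and 34.5% were called lower, and 54.0% and 70.2% were called either way. Unc5a had 7.41 to 9.80 (median 7.87) in hGFAP tumours, 5.84 to 8.07 (median 6.80) in Oligo1 tumours, 9.33, 9.39 and 9.33 in developing samples, and 9.34, 9.62, 9.39, 9.63 and 9.67 in adult samples. Oligo1 tumours lay below all normal samples, and only hGFAP tumour 5 of its group reached the normal range. The difference from adult cerebellum was -1.33 ± 0.40 in hGFAP tumours (adjusted p = 0.00715; -1.56 without hGFAP tumour 5) and -2.70 ± 0.40 in Oligo1 tumours (adjusted p = 3.77e-06).
Unc5c, mutated in the mouse rostral cerebellar malformation, had 8.22 to 10.09 (median 9.55) in hGFAP tumours, 6.60 to 9.43 (median 8.52) in Oligo1 tumours, 10.53, 11.66 and 11.51 in developing samples, and 10.54, 10.61, 10.46, 10.50 and 10.76 in adult samples. Every tumour was below every normal sample. The differences from adult cerebellum were -1.14 ± 0.37 in hGFAP tumours (adjusted p = 0.0127) and -2.22 ± 0.37 in Oligo1 tumours (adjusted p = 1.61e-05), and those from developing cerebellum -1.79 and -2.88, both called.
Unc5b, also known as a receptor of endothelial tip cells, had 6.46 to 8.72 (median 8.10) in hGFAP tumours, 6.06 to 8.08 (median 7.33) in Oligo1 tumours, 7.31, 8.01 and 7.97 in developing samples, and 9.28, 9.05, 9.67, 9.35 and 9.40 in adult samples. It stood higher in all adult samples than in every tumour and every developing sample. The differences from adult cerebellum were -1.45 ± 0.35 in hGFAP and -2.14 ± 0.35 in Oligo1 tumours (adjusted p = 0.00168 and 1.50e-05), and against developing cerebellum neither 0.13 nor -0.56 was called.
Unc5d had 6.14 to 8.68 (median 7.25) in hGFAP tumours, 5.53 to 7.29 (median 6.30) in Oligo1 tumours, 9.61, 9.03 and 8.94 in developing samples, and 7.96, 7.72, 7.69, 7.68 and 7.97 in adult samples. Every tumour was below the developing samples, and Oligo1 tumours also below the adult ones. It was lower than in developing cerebellum in both tumour groups (-1.85 and -2.93, adjusted p = 0.000877 and 3.43e-06), and lower than in adult cerebellum in Oligo1 tumours (-1.54, adjusted p = 0.000239).

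Markers for unipolar brush cells and inhibitory interneurons were also low in tumours. Their mean level was 5.89 to 8.12 in hGFAP tumours, 5.47 to 7.64 in Oligo1 tumours, 9.17 to 9.26 in developing and 8.87 to 9.23 in adult cerebellum. Of the 7 tested, 6 were called lower than in adult cerebellum in hGFAP tumours and 7 in Oligo1 tumours. The shares of all genes called lower were 29.8% and 34.5%. Mature granule neuron markers averaged 7.72 to 10.80 in hGFAP tumours, 6.83 to 9.77 in Oligo1 tumours, 7.03 to 7.66 in developing and 11.03 to 11.35 in adult cerebellum. The part of these cell types in the Unc5 differences was not tested.

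Of the netrins, Ntn1 and Ntn4 were tested. Ntn1, the secreted netrin that binds Dcc, had 7.85 to 9.23 in hGFAP tumours, 8.56 to 9.61 in Oligo1 tumours, 7.65 to 9.39 in developing and 8.28 to 8.91 in adult cerebellum, and was called in none of the 6 comparisons by limma. At an unadjusted p under 0.05 it would have passed in Oligo1 tumours against developing cerebellum (0.65, 95% interval 0.04 to 1.25), and among the developing samples the E15 one was the highest. Ntn4, a netrin of basement membranes, had 7.61 to 8.81 (median 8.45) in hGFAP tumours, 7.40 to 8.68 (median 7.97) in Oligo1 tumours, 6.90, 6.84 and 7.21 in developing samples, and 8.16, 8.19, 8.87, 8.49 and 8.34 in adult samples. Every tumour was above every developing sample, and both tumour groups overlapped the adult samples. Ntn4 rose by 1.38 ± 0.24 in hGFAP tumours (adjusted p = 0.000167) and 1.03 ± 0.24 in Oligo1 tumours (adjusted p = 0.00172) against developing cerebellum, and the differences from adult cerebellum were -0.05 (95% interval -0.47 to 0.38) and -0.40 (-0.83 to 0.03).

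Among the semaphorins, 6 were called higher and 4 lower than in adult cerebellum in hGFAP tumours, and 6 higher and 7 lower in Oligo1 tumours, of 16 tested. Against developing cerebellum the counts were 3 higher and 5 lower in hGFAP tumours and 2 higher and 7 lower in Oligo1 tumours. The shares of all genes called either way were 54.0% and 70.2% against adult cerebellum, and 28.3% and 47.5% against developing cerebellum. Sema3e had 6.67 to 9.58 (median 9.05) in hGFAP tumours, 7.85 to 10.42 (median 9.85) in Oligo1 tumours, 6.74, 5.67 and 5.97 in developing samples, and 7.07, 6.85, 6.93, 6.90 and 6.99 in adult samples. All normal samples lay in the range of dim signals, and every tumour but hGFAP tumour 5 lay above all of them. Sema3e rose by 1.88 ± 0.41 in hGFAP tumours (adjusted p = 0.000613; 2.19 without hGFAP tumour 5) and 2.75 ± 0.41 in Oligo1 tumours (adjusted p = 4.24e-06) against adult cerebellum. Against developing cerebellum it rose by 2.70 ± 0.48 and 3.57 ± 0.48 (adjusted p = 0.000188 and 4.77e-06), and with strain as a covariate the adjusted p in hGFAP tumours was 0.0579. All 21 bright probe sets were called higher than in developing cerebellum in each tumour group. As a gene, Sema3e lay above 7.61 in 7 hGFAP and 8 Oligo1 tumours, but in 0 developing and 0 adult samples. Its probe sets could thus pass as bright mainly through the tumours, so their shared direction gives no separate support.
Sema7a had 11.25 to 12.48 (median 12.00) in hGFAP tumours, 10.96 to 12.41 (median 12.26) in Oligo1 tumours, 9.77, 10.23 and 10.72 in developing samples, and 11.50, 11.25, 11.14, 11.26 and 11.39 in adult samples. All tumours lay above the developing samples, and hGFAP tumour 5 and Oligo1 tumour 6 lay at the bottom of their groups, beside or below the adult samples. The rise over developing cerebellum was 1.72 ± 0.26 in hGFAP tumours and 1.84 ± 0.26 in Oligo1 tumours (adjusted p = 2.59e-05 and 7.86e-06), and that over adult cerebellum 0.65 ± 0.22 and 0.77 ± 0.22 (adjusted p = 0.0148 and 0.00332).

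Sema4d, a transmembrane semaphorin made by oligodendrocytes that binds plexin B1, was lower in tumours than in adult cerebellum. It had 8.71 to 9.27 (median 9.00) in hGFAP tumours, 8.33 to 8.99 (median 8.68) in Oligo1 tumours, 8.63, 8.23 and 8.40 in developing samples, and 9.67, 9.59, 10.05, 9.70 and 9.72 in adult samples. All adult samples stood above all others. The difference from adult cerebellum was -0.73 ± 0.12 in hGFAP tumours (adjusted p = 4.86e-05) and -1.12 ± 0.12 in Oligo1 tumours (adjusted p = 1.09e-07). Against developing cerebellum Sema4d rose in hGFAP tumours by 0.60 ± 0.14 (adjusted p = 0.00271). The markers of myelinating oligodendrocytes averaged 6.96 to 9.90 in hGFAP tumours, 6.16 to 8.30 in Oligo1 tumours, 5.70 to 6.16 in developing and 9.37 to 10.06 in adult cerebellum. Of the 7 tested, 3 were called lower than in adult cerebellum in hGFAP tumours and 7 in Oligo1 tumours. Over all genes 29.8% and 34.5% were called lower. Unlike Sema4d, each of these markers overlapped between hGFAP tumours and adult samples. Their part in the Sema4d differences was not tested.

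Sema3a, the classic secreted repellent that binds neuropilin 1, had 6.12 to 8.08 (median 7.42) in hGFAP tumours, 5.29 to 7.08 (median 6.11) in Oligo1 tumours, 9.14, 9.21 and 8.91 in developing samples, and 7.99, 7.49, 7.66, 7.65 and 7.39 in adult samples. Every tumour was below every developing sample, and every Oligo1 tumour also below every adult one. The differences from developing cerebellum were -1.78 ± 0.33 in hGFAP tumours (adjusted p = 0.000250) and -2.90 ± 0.33 in Oligo1 tumours (adjusted p = 4.25e-07), and in Oligo1 tumours that from adult cerebellum was -1.45 ± 0.28.
Sema3f, which binds neuropilin 2, had 6.72 to 8.61 (median 7.23) in hGFAP tumours, 7.19 to 9.28 (median 8.36) in Oligo1 tumours, 9.55, 9.42 and 8.51 in developing samples, and 7.60, 7.66, 7.87, 8.02 and 7.82 in adult samples. Most hGFAP tumours lay below the developing and adult samples, and Oligo1 tumours spanned both normal ranges. It was called lower than in developing cerebellum in hGFAP tumours (-1.85 ± 0.42, adjusted p = 0.00182), and in Oligo1 tumours the difference was -0.88 (95% interval -1.75 to -0.01, adjusted p = 0.0863).
Sema5a, a transmembrane semaphorin with thrombospondin repeats, had 8.31 to 9.11 (median 8.69) in hGFAP tumours, 5.84 to 8.53 (median 7.28) in Oligo1 tumours, 9.20, 9.39 and 9.37 in developing samples, and 9.23, 8.99, 9.10, 9.47 and 9.54 in adult samples. Oligo1 tumours lay below all normal samples. Their differences were -1.93 ± 0.28 from adult and -1.98 ± 0.34 from developing cerebellum (adjusted p = 3.76e-06 and 6.55e-05), and those of hGFAP tumours were -0.55 and -0.61 and were not called.

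Of the other semaphorins, Sema6a, which steers granule cell migration together with plexin A2, was higher than in adult cerebellum by 1.12 in hGFAP and 1.06 in Oligo1 tumours. Sema4b and Sema6c, both membrane-bound, were called higher by 0.53 to 0.63 in both groups. Sema3d was called higher in hGFAP tumours (1.10) and Sema4c in Oligo1 tumours (0.54). Sema4g, Sema6b and Sema6d were called lower in both, by log2 differences of -1.11 to -0.65, and Sema4f in Oligo1 tumours (-0.78). Sema5b was lower than in developing cerebellum in both groups (-1.38 and -1.76), as were Sema4g (-0.90 and -1.20) and Sema6d (-0.48 and -0.62).

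**Figure D3:**
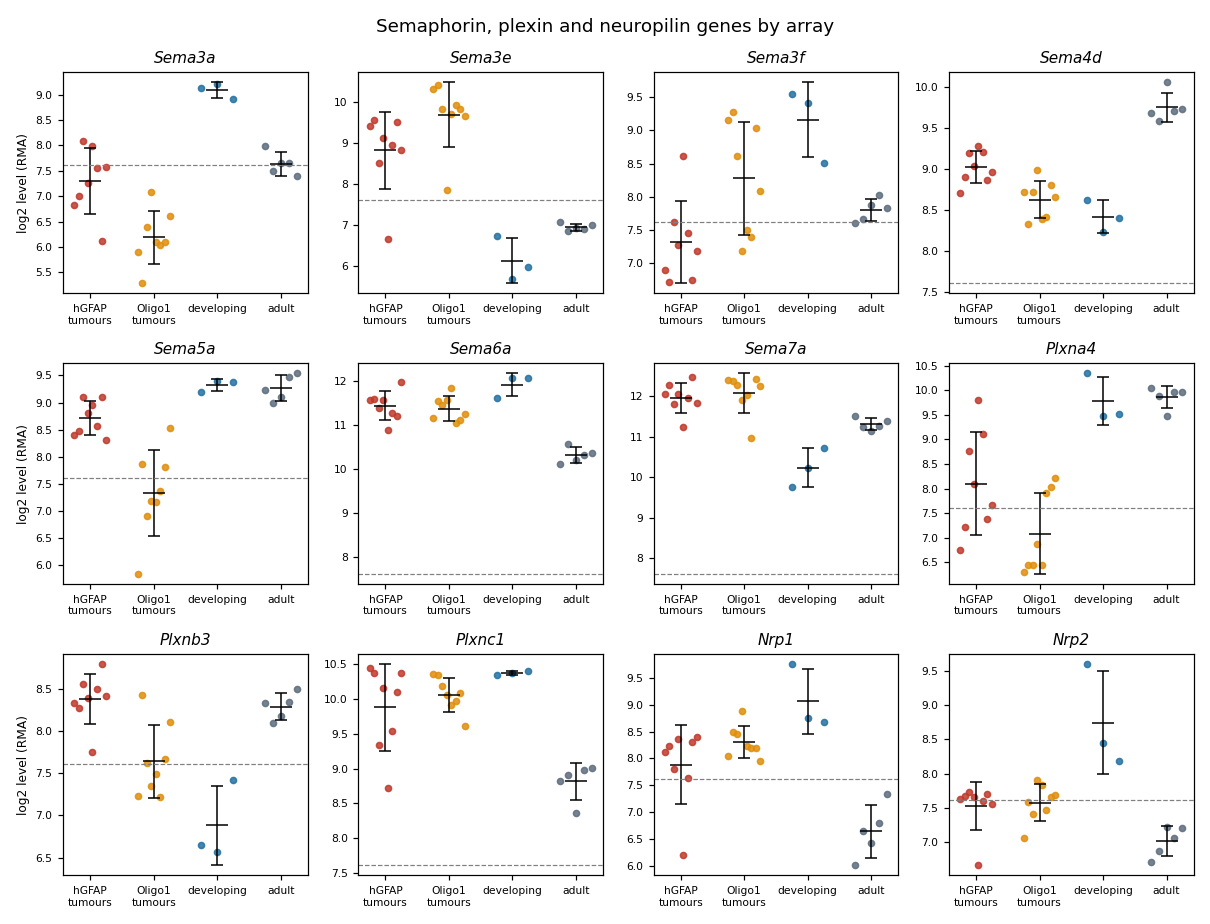
Log2 level of semaphorin, plexin and neuropilin genes in every sample, 1 panel per gene, with groups from left to right as hGFAP tumours, Oligo1 tumours, developing and adult cerebellum. Points are samples, bars the mean ± SD of a group and the dashed line the value 7.61; Sema3e and Sema7a are on average highest in tumours, and Sema3a in the 3 developing samples, which lie between 8.91 and 9.21.

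The receptors of semaphorins were mostly higher in tumours than in adult cerebellum, with 7 of 11 called higher and 2 lower in hGFAP tumours, and 6 higher and 4 lower in Oligo1 tumours. Against developing cerebellum, 1 was higher and 5 lower in hGFAP tumours, and 1 higher and 4 lower in Oligo1 tumours. All genes had called shares of 54.0% and 70.2% against adult cerebellum, and of 28.3% and 47.5% against developing cerebellum. Nrp1, the neuropilin that binds Sema3a and vascular growth factors, had 6.20 to 8.39 (median 8.18) in hGFAP tumours, 7.95 to 8.88 (median 8.22) in Oligo1 tumours, 9.75, 8.75 and 8.68 in developing samples, and 6.02, 6.65, 6.42, 6.80 and 7.34 in adult samples. Except for hGFAP tumour 5, all tumours were above the adult samples. The rise over adult cerebellum was 1.24 ± 0.30 in hGFAP tumours (adjusted p = 0.00150; 1.48 without hGFAP tumour 5) and 1.66 ± 0.30 in Oligo1 tumours (adjusted p = 3.97e-05). Nrp1 was lower than in developing cerebellum in hGFAP tumours (-1.17, adjusted p = 0.0152). Nrp2 was higher than in adult cerebellum in both groups (0.51 and 0.56) and lower than in developing cerebellum in both (-1.21 and -1.16).
Endothelial and pericyte markers, cells that also use neuropilin 1, averaged 7.37 to 7.99 in hGFAP tumours, 7.53 to 8.29 in Oligo1 tumours, 8.62 to 9.14 in developing and 7.86 to 8.41 in adult cerebellum. Of the 8 tested, 3 were called lower in hGFAP tumours than in adult cerebellum, and in Oligo1 tumours 3 were called lower and 1 higher. The shares of all genes called either way were 54.0% and 70.2%.

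Plxna4, a plexin that pairs with neuropilins in class 3 semaphorin receptors, had 6.75 to 9.81 (median 7.88) in hGFAP tumours, 6.29 to 8.22 (median 6.66) in Oligo1 tumours, 10.35, 9.47 and 9.52 in developing samples, and 10.05, 9.89, 9.48, 9.97 and 9.96 in adult samples. Oligo1 tumours lay below all normal samples, and hGFAP tumour 5 alone of its group reached them. It was lower than in adult cerebellum by a log2 difference of -1.77 ± 0.44 in hGFAP tumours (adjusted p = 0.00188; -2.01 without hGFAP tumour 5) and -2.78 ± 0.44 in Oligo1 tumours (adjusted p = 8.63e-06). Against developing cerebellum the differences were -1.68 and -2.69, both called.
Plxnb3, a receptor for Sema5a known from oligodendrocyte-lineage cells, had 7.75 to 8.79 (median 8.40) in hGFAP tumours, 7.22 to 8.42 (median 7.56) in Oligo1 tumours, 6.65, 6.57 and 7.42 in developing samples, and 8.33, 8.09, 8.17, 8.34 and 8.50 in adult samples. All hGFAP tumours lay above the developing samples and around the adult ones. The rise over developing cerebellum was 1.49 ± 0.23 in hGFAP tumours (adjusted p = 3.42e-05) and 0.76 ± 0.23 in Oligo1 tumours (adjusted p = 0.00997). In Oligo1 tumours that call was lost with strain as a covariate (adjusted p = 0.242), without the E15 sample (0.0693) and without the E18 sample (0.0797).
Plxnc1, the receptor of Sema7a, was higher than in adult cerebellum in both groups (1.06 and 1.25), as were Plxnb2 (0.97 and 1.12), Plxnd1, the receptor of Sema3e (0.78 and 0.88), and Plxna3 (0.55 and 0.77). Plxna1 was lower in both (-0.81 and -0.71).

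All 6 tested ephrins were called lower in both tumour groups than in developing cerebellum, and 6 of 6 higher in developing than in adult cerebellum. Of all genes, 13.3% and 19.9% were called lower in hGFAP and Oligo1 tumours, and 20.2% higher in developing than in adult cerebellum. The median difference of the ephrins from developing cerebellum was -1.70 in hGFAP and -1.58 in Oligo1 tumours. Efna3, a membrane-anchored ligand of EphA receptors, had 6.58 to 7.98 (median 7.45) in hGFAP tumours, 6.09 to 7.36 (median 6.64) in Oligo1 tumours, 9.64, 9.82 and 9.56 in developing samples, and 9.14, 8.91, 8.04, 8.24 and 8.64 in adult samples. Every tumour was below every normal sample. The difference from developing cerebellum was -2.32 ± 0.30 in hGFAP tumours (adjusted p = 3.77e-06) and -2.96 ± 0.30 in Oligo1 tumours (adjusted p = 7.99e-08), and that from adult cerebellum -1.24 ± 0.25 and -1.88 ± 0.25, both called.
Efna5, best known for mapping retinal axons, had 6.56 to 7.20 (median 7.03) in hGFAP tumours, 6.83 to 7.83 (median 7.39) in Oligo1 tumours, 9.29, 9.48 and 9.11 in developing samples, and 7.18, 7.16, 6.92, 6.94 and 7.13 in adult samples. The developing samples stood apart from all others, and tumours overlapped the adult ones. Above 7.61 lay 3 of 8 Oligo1 tumours, but 0 of 8 hGFAP tumours and 0 of 5 adult samples. The difference from developing cerebellum was -2.29 ± 0.17 in hGFAP and -1.93 ± 0.17 in Oligo1 tumours (adjusted p = 1.30e-09 and 1.10e-08), and from adult cerebellum -0.07 (95% interval -0.36 to 0.23) and 0.30 (0.01 to 0.59), neither called.
The other ephrins were lower than in developing cerebellum by log2 differences of -1.95 to -1.14 in hGFAP tumours and -2.05 to -1.03 in Oligo1 tumours. Efnb2, a transmembrane ephrin that also marks arteries, was lower than in adult cerebellum too (-0.65 and -0.76, both called), and Efnb1 was higher than in adult cerebellum in Oligo1 tumours (0.41).

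**Figure D4:**
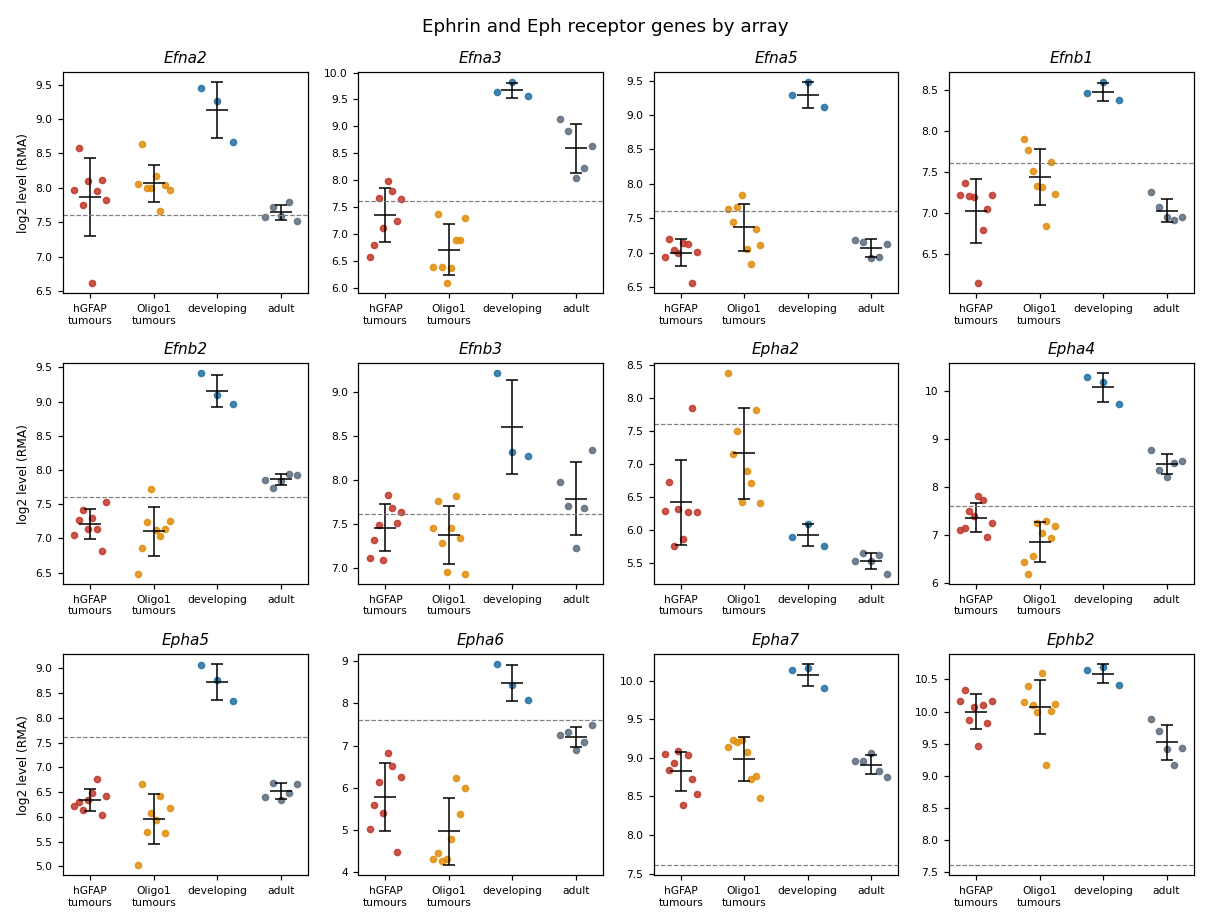
Log2 level of ephrin and Eph receptor genes in every sample, 1 panel per gene, with groups from left to right as hGFAP tumours, Oligo1 tumours, developing and adult cerebellum. Points are samples, bars the mean ± SD of a group and the dashed line the value 7.61; the 3 developing samples are highest in the panels of all 6 ephrins on average, with Epha2 as the panel where tumours are highest.

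Of the Eph receptors, 7 of 11 were called in hGFAP tumours against developing cerebellum, all 7 lower. In Oligo1 tumours 7 were called lower and 1 higher. The called shares of all genes were 28.3% and 47.5% in these comparisons. Epha4, which binds ephrins of both classes, had 6.96 to 7.81 (median 7.33) in hGFAP tumours, 6.18 to 7.29 (median 6.99) in Oligo1 tumours, 10.30, 10.19 and 9.74 in developing samples, and 8.76, 8.34, 8.21, 8.50 and 8.55 in adult samples. The groups kept apart, with tumours below adult and adult below developing samples. The difference from developing cerebellum was -2.71 ± 0.22 in hGFAP tumours (adjusted p = 5.06e-09) and -3.21 ± 0.22 in Oligo1 tumours (adjusted p = 2.74e-10). The 18 bright probe sets were called lower in each, but they could pass as bright mainly through the normal samples. Their shared direction therefore gives no separate support. Against adult cerebellum it was -1.11 ± 0.18 and -1.61 ± 0.18 (adjusted p = 5.27e-05 and 2.31e-07).
Epha5, an EphA receptor of developing neurons, had 6.03 to 6.76 (median 6.32) in hGFAP tumours, 5.02 to 6.67 (median 6.01) in Oligo1 tumours, 9.06, 8.76 and 8.33 in developing samples, and 6.40, 6.69, 6.34, 6.48 and 6.67 in adult samples. Only the developing samples were above 7.61. The difference from them was -2.38 ± 0.23 in hGFAP tumours and -2.76 ± 0.23 in Oligo1 tumours (adjusted p = 9.04e-08 and 7.18e-09).
Epha6, another EphA receptor, had 4.47 to 6.83 (median 5.86) in hGFAP tumours, 4.28 to 6.24 (median 4.62) in Oligo1 tumours, 8.92, 8.44 and 8.08 in developing samples, and 7.25, 7.32, 6.89, 7.08 and 7.49 in adult samples. All tumours were below all normal samples, and tumours and adult samples were dim. The differences from developing cerebellum were -2.70 ± 0.44 and -3.51 ± 0.44 (adjusted p = 7.06e-05 and 1.76e-06), and those from adult cerebellum -1.43 ± 0.37 and -2.23 ± 0.37 (adjusted p = 0.00285 and 1.68e-05).

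Epha2 was the Eph receptor called higher than in developing cerebellum, in Oligo1 tumours. It had 5.77 to 7.85 (median 6.29) in hGFAP tumours, 6.42 to 8.38 (median 7.02) in Oligo1 tumours, 5.90, 6.10 and 5.77 in developing samples, and 5.54, 5.65, 5.54, 5.62 and 5.33 in adult samples. Every Oligo1 tumour was above every normal sample, though most tumours lay in the range of dim signals. The rise over adult cerebellum was 0.89 ± 0.31 in hGFAP tumours (adjusted p = 0.0189) and 1.63 ± 0.31 in Oligo1 tumours (adjusted p = 7.30e-05). Over developing cerebellum it was 1.24 ± 0.37 in Oligo1 tumours (adjusted p = 0.00831; 0.170 with strain as a covariate, and 0.0524 over the Oligo1 tumours 5 to 8 in place of all 8), and in hGFAP tumours it was 0.50 (95% interval -0.26 to 1.26), not called.
Of the remaining receptors, Epha7, Ephb1, Ephb2 and Ephb3 were called lower than in developing cerebellum in both groups, by log2 differences of -1.94 to -0.52. Ephb2 and Ephb6 were called higher than in adult cerebellum in both (0.48 to 1.11), and Epha3 and Epha8 were called in no comparison by limma, with 1 of their 12 differences at an unadjusted p under 0.05 (Epha8 in hGFAP tumours against developing cerebellum, 0.78, adjusted p = 0.0702).

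Between the tumour groups, 13 guidance genes were called, 10 higher and 3 lower in hGFAP than in Oligo1 tumours, where 10.4% of all genes were called higher and 8.54% lower, together 18.9%. No guidance gene kept the 8 hGFAP tumours apart from the 8 Oligo1 tumours; over all genes the share without overlap was 0.300% higher and 0.364% lower, together 0.665%. Higher in hGFAP tumours were Sema5a (1.38 ± 0.25, adjusted p = 0.00401), Unc5a (1.37 ± 0.35, adjusted p = 0.0176), Slit3 (1.24 ± 0.37, adjusted p = 0.0307), Sema3a (1.11 ± 0.24, adjusted p = 0.00979), Unc5c (1.09 ± 0.32, adjusted p = 0.0298) and Unc5d (1.08 ± 0.28, adjusted p = 0.0211). Plxnb3 (0.74), Efna3 (0.64), Epha4 (0.50) and Sema4d (0.39) were called higher by less. Slit1 was the most different in the other direction, with -1.83 ± 0.37 (adjusted p = 0.00732), followed by Sema3f (-0.97 ± 0.31, adjusted p = 0.0367) and Efna5 (-0.36 ± 0.12, adjusted p = 0.0446). For Efna5, 3 of 8 Oligo1 tumours and 0 of 8 hGFAP tumours lay above 7.61, so its difference lay between mostly dim signals.

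These calls depended on the samples and the fit. Tumours 1 to 4 of each group carry a different style of array name from tumours 5 to 8, and the labels do not say what it marks. Within tumours 1 to 4 of each group 16 guidance genes were called by limma (17.4% of all genes), and within tumours 5 to 8 none was (0.0637% of all genes), where 10 passed at an unadjusted p under 0.05. A fit of the 16 tumours alone called 4 (2.02% of all genes), and without hGFAP tumour 5 the count was 9 (10.5% of all genes). Without it the differences were 1.01 for Slit3 (adjusted p = 0.0569), 1.00 for Unc5c (0.0548) and -0.38 for Efna5 (0.0551), which were no longer called, and -1.92 for Slit1, which was. Within tumours 5 to 8 the differences were 1.01 for Sema5a, 1.10 for Sema3a and -1.24 for Slit1.
Some lists of neuronal and glial markers differed between the tumour groups as well. Called higher in hGFAP tumours were 4 of the 9 mature granule neuron markers, 3 of the 9 Purkinje cell markers and 5 of the 7 myelin markers. So were 7 of the 9 astrocyte markers, where 10.4% of all genes were called higher. Other lists had few calls: 1 of 7 interneuron and unipolar brush cell markers, 1 of 6 oligodendrocyte precursor markers and 0 of 7 microglia and macrophage markers. The 10 precursor markers had a median difference of -0.50. Purkinje cell markers averaged 7.24 to 10.70 in hGFAP and 6.28 to 9.73 in Oligo1 tumours, and astrocyte markers 9.45 to 10.39 and 8.09 to 9.61. The marker counts were not recomputed without hGFAP tumour 5 or within tumours 5 to 8. The part of these cell types in the guidance gene differences was not tested.

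**Figure D5:**
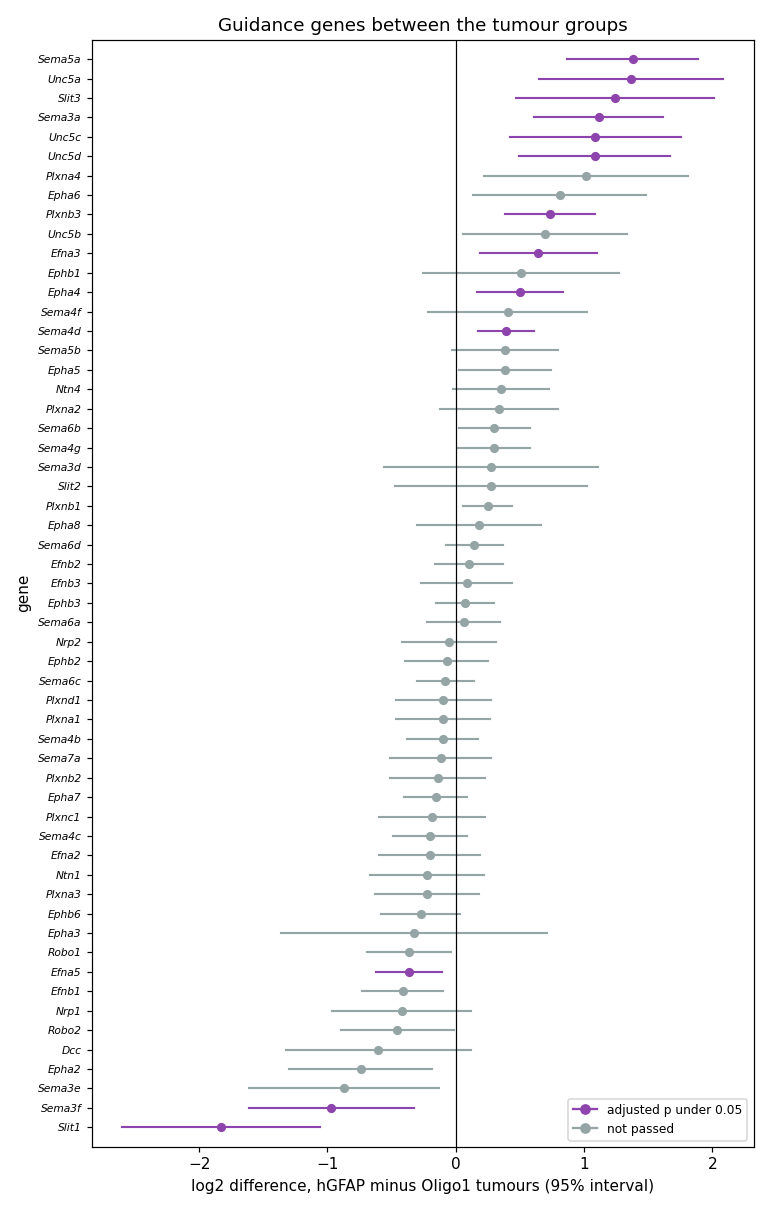
Log2 difference of hGFAP minus Oligo1 tumours (8 samples each) for 56 tested guidance genes (Unc50 left out), 1 row per gene, as points with 95% intervals; purple points were called. Positive values mean higher in hGFAP tumours: 10 called genes lie right of 0, led by Sema5a at 1.38, and 3 lie left, led by Slit1 at -1.83.

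Other genes of the guidance pathways were read from 2 lists drawn up separately. Of 28 tested co-receptors and other guidance molecules, 10 were called higher and 9 lower in hGFAP tumours than in adult cerebellum, and 11 higher and 13 lower in Oligo1 tumours. The called shares were 67.9% and 85.7%, beside 54.0% and 70.2% of all genes. Draxin, a secreted ligand of Dcc, rose by 4.79 and 5.29, Cxcr4, the receptor that holds granule precursors in the outer layer, by 3.09 and 3.77, and Flrt2, a receptor partner of Unc5d, by 1.39 and 1.50. Against developing cerebellum 2 were higher and 12 lower in hGFAP tumours, and 1 higher and 15 lower in Oligo1 tumours, which is 14 and 16 of the 28, beside 28.3% and 47.5% of all genes. The largest falls there were those of the teneurin Tenm4 (-2.14 and -2.13) and of the adhesion molecule L1cam (-1.67 and -2.55).
Among 53 tested intracellular effectors, which carry guidance signals to the cytoskeleton, 16 were called higher and 19 lower in hGFAP tumours than in adult cerebellum, and 19 higher and 24 lower in Oligo1 tumours. The called shares were 66.0% and 81.1%, beside 54.0% and 70.2% of all genes. Dpysl3, a collapsin response mediator, rose by 2.34 and 2.22, and Mical1, an actin-oxidising enzyme of the semaphorin pathway, by 2.21 and 2.90. The actin-binding Ablim3 was lower, by log2 differences of -2.08 and -3.55. Against developing cerebellum 2 were higher and 15 lower in hGFAP tumours, and 4 higher and 23 lower in Oligo1 tumours, with Dpysl3 at -1.93 and -2.04. The called shares, 32.1% and 50.9%, were near the 28.3% and 47.5% of all genes. Between the tumour groups 8 effectors were called, higher in hGFAP tumours, a share of 15.1% beside 18.9% of all genes, led by Chn1 (1.57), a target of EphA4 signalling.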

How the data were processed

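Total RNA from 24 mouse tissue samples was isolated with TRIzol and labelled with biotin, per the labels' protocols. The authors deposited RMA values (log2 scale) for 241576 probe sets, and the submitters' processing notes name oligo 1.14 and R 2.15. RMA quantile normalizes across arrays, so that the values show relative changes and shifts shared by most genes are removed. Of the build and annotation behind those values, nothing is stated in the labels. Of the deposited columns, 0 went unused. Symbols came from the platform's annotation: 213361 probe sets had 1 symbol, 5107 several and 23108 none, and the last 2 kinds were left out. A gene's probe sets (5 to 39 for the guidance genes) were combined by median polish into 20893 genes, and 10983 with at least 3 arrays above the table's median of 7.61 (log2) were tested.

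Samples were grouped by the labels. Contrasts of a 4-group model over all 24 arrays were estimated by limma 3.58.1 (lmFit, then eBayes) under R 4.3.3, with version 1.17.8 of data.table for reading. Benjamini-Hochberg adjustment ran over all tested genes, and calls were made at 0.05. A separate fit tested 148320 probe sets, and a bright probe set passed the same filter. Errors are SE of the fit and 95% intervals. The number of arrays limits the precision, and intensities give no counts of molecules. The model was tested on simulated data. Promoters came from RefSeq. Figures were drawn with matplotlib 3.10.9.

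The guidance genes and the other lists were chosen with earlier results of these data known. Sample values of the normal groups, with ranges and medians of the tumour groups, are given for Slit1 and the largest called changes. These were the 6 largest called rises and falls against each normal stage and the 6 largest each way between the tumour groups. Other genes are given by family, by exceptions and as examples. Ntn1 and the genes above both normal stages were picked out after their values were seen. Of the 2 lists of other pathway genes, those with the largest changes are named, except some that are not reported here. The alternatives tried were other probe summaries, filters, scalings, fits, weights, strain, array name style, a replicate block and single samples left out.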

Additional observations from a re-analysis of the deposited data

Results flagged for a closer look

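Single samples that lay far from the rest of their group were looked for in 81 groups of 27 genes, and 11 were found. The genes were Unc50 and the guidance genes whose normal samples are given 1 by 1. Chance alone marks about 1 in 20 such groups. The sample hGFAP tumour 5 accounted for 4 of the 11. It had the lowest Dcc level of its group (8.44, next 10.75), the lowest Nrp1 (6.20, next 7.64), the lowest Robo1 (9.57, next 10.07) and the lowest Sema3e (6.67, next 8.51). In the same sample the proliferation markers averaged 7.10 and the mature granule neuron markers 10.80.

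hGFAP tumour 7 had the lowest Efna5 level of its group (6.56, next 6.94) and the highest Epha2 level (7.85, next 6.72). Among Oligo1 tumours, tumour 4 had the lowest Sema3e level (7.85, next 9.68) and tumour 6 the lowest Sema7a level (10.96, next 11.91). Among adult samples, the P95 sample had the lowest Plxna4 level (9.48, next 9.89), a P60 sample the lowest Robo1 level (8.40, next 8.88), and the other P60 sample the highest Robo2 level (9.01, next 8.53).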

How the results depend on the processing

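Of the values recomputed for single guidance genes, 1137 kept their direction and their side of the threshold, 50 kept their direction and lost the call, and 3 reversed. The reversals concern Slit1 in Oligo1 tumours against developing cerebellum, which was not called either way: 0.21 with array weights, 3e-04 without Oligo1 tumour 6 and 0.16 without the E15 sample, in a range of -0.57 to 0.16 as each developing sample was left out. With a stricter filter on dim genes, which leaves 25 guidance genes tested, 22 were called in hGFAP and 23 in Oligo1 tumours against adult cerebellum, 14 and 14 against developing cerebellum, 8 between the tumour groups and 18 in developing against adult cerebellum. Over all genes, 61.3%, 76.4%, 28.5%, 48.4%, 25.3% and 50.3% were called in these comparisons, in that order. With strain as a covariate 18 were called in hGFAP tumours against developing cerebellum, where the share over all genes was 7.07%; the cause was not tested.

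The 13 calls between the tumour groups were the least stable. They became 4 in a fit of the tumours alone (2.02% of all genes called), 25 with array weights (39.5%), 7 with array name style as a block (8.07%), and 0 of limma's calls over the tumours 5 to 8 (0.0637%), where 10 passed at an unadjusted p under 0.05. They became 2 with a replicate block (1.65%). The share over all genes was 18.9% in the reported fit and moved in the same direction in each of these. The labels do not say whether shared replicate numbers pair the tumours. Deviations of same-numbered tumours from their group means had correlations of -0.50 to 0.59, 3 of 8 of them over 0.1. Among hGFAP tumours 1 of 8 correlated best with its own number. Outlying tumours shape these correlations too, so they do not settle whether the numbers mark pairs. Without hGFAP tumour 5 there were 9 calls (10.5% of all genes), without Oligo1 tumour 6 there were 18 (18.6%), and without both, an alternative chosen after seeing the data, 11 (12.5%). Why these counts moved was not tested, except that fewer samples entered some fits.

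Leaving out 1 normal sample at a time gave 31 to 33 calls for hGFAP and 40 to 42 for Oligo1 tumours against adult cerebellum. Against developing cerebellum the counts were 29 to 31 and 31 to 34, and for developing against adult cerebellum 35 to 40. The called shares over all genes were 49.4% to 49.9% and 67.1% to 67.8% against adult cerebellum. They were 17.8% to 24.2% and 33.4% to 40.2% against developing cerebellum, and 36.8% to 43.7% for developing against adult cerebellum. With all samples these shares were 54.0%, 70.2%, 28.3%, 47.5% and 45.7%, in that order. Signals below 7.61 are dim, and differences between dim groups, such as those of Epha6 and Epha2, are limited by the background of the array.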

Other observations

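Further guidance molecules outside the named families also differed between samples. Against adult cerebellum the contactin Cntn4 was lower in hGFAP and Oligo1 tumours (-1.55 and -2.42), as was Lrrc4, a netrin-G ligand (-1.48 and -1.96). Against developing cerebellum the receptor phosphatase Ptprd was higher (0.44 and 0.51), and in hGFAP tumours the axonal adhesion molecule Cntn2 was higher too (1.12). In hGFAP over Oligo1 tumours, Nfasc (1.05) and Cntn1 (0.88), which work at the contact of axon and myelin, and the netrin-G ligand Lrrc4c (0.82) were called higher, and Rgma, the repulsive guidance molecule (-0.56), Ptk7 (-0.46) and Ntng2 (-0.44) were called lower. Of the effectors, Ablim3 was also lower than in developing cerebellum (-2.13 and -3.60) and higher in hGFAP than in Oligo1 tumours (1.47). Mical2 was higher than in developing cerebellum (1.78 and 1.37). Both tumour groups had less Mical2 signal than adult cerebellum, with a difference of -1.90 in hGFAP tumours.

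The microglia and macrophage markers were called higher in tumours, 7 of 7 tested in each comparison with normal cerebellum. Their mean level was 7.21 to 9.46 in hGFAP tumours, 8.88 to 10.01 in Oligo1 tumours, 6.56 to 7.17 in developing and 6.75 to 7.42 in adult cerebellum. Meningeal fibroblast markers averaged 7.07 to 7.87 in hGFAP tumours, 6.95 to 7.63 in Oligo1 tumours, 8.03 to 8.39 in developing and 7.07 to 7.41 in adult cerebellum, and 1 of the 6 was dim in every sample. Oligodendrocyte precursor markers averaged 7.39 to 9.80 in hGFAP tumours, 8.00 to 9.34 in Oligo1 tumours, 7.73 to 8.31 in developing and 7.27 to 7.73 in adult cerebellum.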
